A study of Mus musculus with 4 samples.

Results

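The glucocorticoid receptor gene Nr3c1, the corticosteroid-activating enzyme gene Hsd11b1 and 8 target genes of the receptor (Fkbp5, Tsc22d3, Tat, Sgk1, Klf9, Zbtb16, Lpin1 and Dusp1) were followed in mouse liver. These 10 genes of the 35275 in the deposited read count table were taken by symbol, and each symbol matched 1 row. Bulk RNA-seq had been run on liver from 16 female mice of 26 weeks as 4 pooled libraries, with 4 mice in each pool. All mice carried the amyloidogenic Apoa2c allele of apolipoprotein A-II. The labels name them Apoa2c congenic with strain AKR/J, whereas the methods of the study describe R1.P1-Apoa2c mice on the SAMR1 background.

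VS mice (vehicle, sedentary) received PBS and did not train. VI mice (vehicle, interval exercise) received PBS and ran interval training (IT) on a treadmill over 16 weeks, on 4 days per week for 30 min, with 3-min intervals alternating between 30% and 70% of maximal speed. FS mice (fibril, sedentary) were injected intravenously with 1 µg of AApoAII amyloid fibrils at 10 weeks of age, which seeds systemic amyloidosis, and did not train. FI mice (fibril, interval exercise) received the same fibrils and the same training. The paper found no amyloid in vehicle groups, and less liver amyloid in trained than in sedentary fibril mice. FS and FI therefore share the injection and not the amount of amyloid, and amyloidosis as a factor below means fibril injection. Organs were taken within 24 h after training, and the time of day is not given in any source used here. Since each group is 1 library of pooled tissue, the spread between mice was not measured. The counting intervals below cover counting error only, and no SE or p below measures the spread between mice.

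Glucocorticoids are steroid hormones of the adrenal cortex that rise with the daily rhythm, fasting, exercise and inflammation. In the liver, Hsd11b1 regenerates active corticosteroid from its inert form. The hormone binds the receptor Nr3c1 in the cytoplasm, where Hsp90 and immunophilins hold it ready, and the receptor then enters the nucleus and binds palindromic response elements. Its targets in hepatocytes include enzymes of amino acid breakdown and gluconeogenesis, regulators of lipid synthesis, and proteins that restrain the receptor itself or inflammatory signalling.

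The response element is a palindrome with an arm of 6 bases, AGAACA or its reverse complement TGTTCT, and a spacer of 3 bases between both arms. RefSeq promoter windows of GRCm38.p6, the assembly also called mm10, reach from 250 bases before to 50 after a start site, and 8 of the 10 genes had 15 windows among them. The arm on either strand was in a window of 3 of 7 targets, Tsc22d3, Sgk1 and Lpin1, against 21.3% of 27025 genes. The targets had more windows per gene than most genes, 6 of them from Sgk1, and by window the arm was in 5 of their 14, against 19.0% of all 32851. The full palindrome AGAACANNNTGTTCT was in 3 of all windows (0.00913%), and 1 of them was a window of Sgk1. The shorter core GNACANNNTGTNC, which lies within the full palindrome there and begins at position -188 from the start site at 21993890, was in 156 windows (0.475%) and in no further target. These stretches are shown because they hold the arms found. Capitals mark the arms and, in Sgk1, the spacer between them. A match describes the letters only and shows no binding.
Sgk1, chr10:21993640-21993735, plus strand: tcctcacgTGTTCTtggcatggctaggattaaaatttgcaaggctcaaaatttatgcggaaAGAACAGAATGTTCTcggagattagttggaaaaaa
Sgk1, chr10:21881969-21882014, plus strand: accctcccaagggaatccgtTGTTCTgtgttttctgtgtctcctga
Tsc22d3, chrX:140600682-140600727, minus strand: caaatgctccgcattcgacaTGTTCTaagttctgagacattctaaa
Lpin1, chr12:16611104-16611149, minus strand: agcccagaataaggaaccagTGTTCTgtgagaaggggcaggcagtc
The Lpin1 start site of this window, 16610966, lies outside the gene as the deposited table bounds it, and a further Sgk1 window with the start site at 21992223 also held 1 arm.

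All 8 targets had their lowest level in VS and their highest in FI, with VI and FS between. In FI versus VS the level was 6.24-fold for Lpin1, 5.62-fold for Tat, 3.87-fold for Dusp1, 3.67-fold for Fkbp5, 2.83-fold for Zbtb16, 2.66-fold for Sgk1, 2.12-fold for Tsc22d3 and 1.63-fold for Klf9. The receptor and Hsd11b1 did not share this pattern and were at 0.857-fold and 0.840-fold in FI versus VS. Totals were between 23442935 and 28814802 counts per library, so that 3 counts, the limit that a count of 0 allows, were 0.104 to 0.128 CPM. Albumin took 12.1% to 13.6% of the counts and mitochondrial transcripts 2.99% to 3.32%. Levels are given in counts per 1000000 after TMM scaling (CPM) unless named otherwise.

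**Figure D1:**
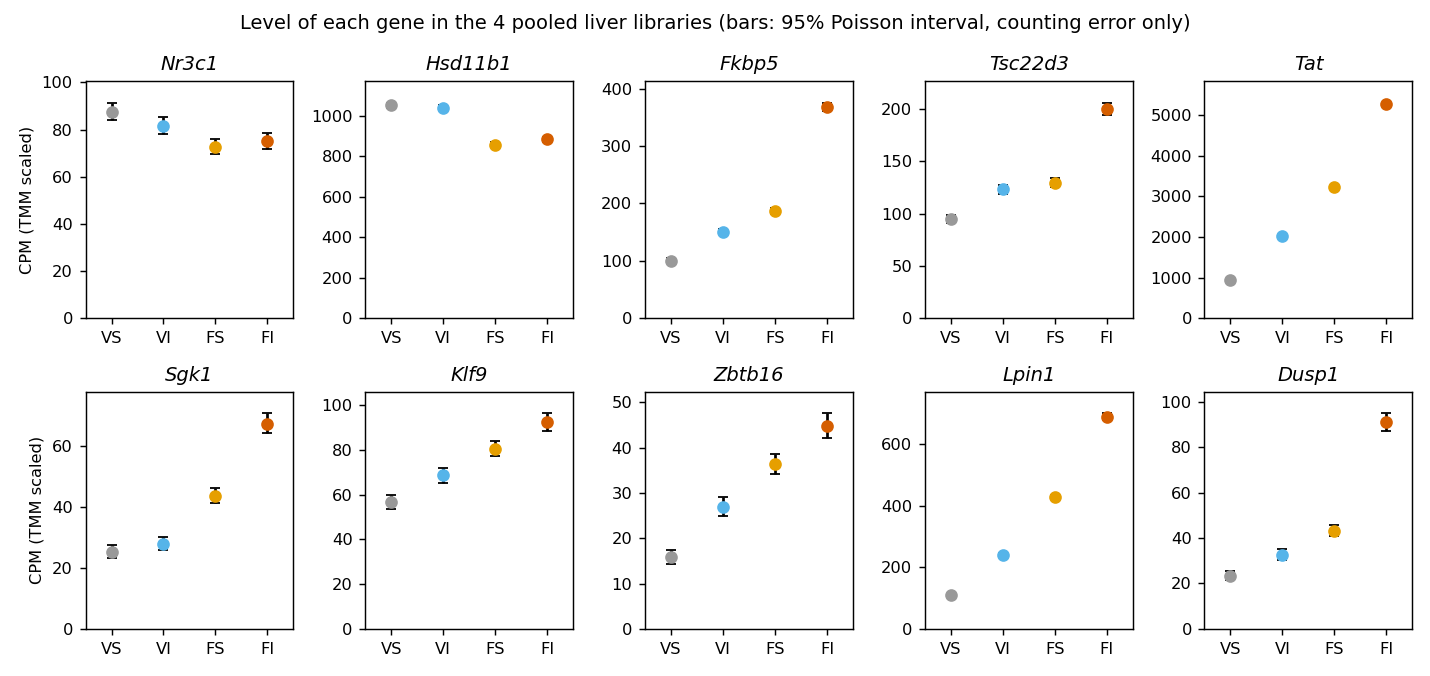
Level of the receptor gene, Hsd11b1 and 8 targets in CPM (vertical axes from 0, a scale for each gene) in the VS, VI, FS and FI libraries, with bars for the 95% Poisson interval of counting. The 8 targets step up from VS over VI and FS to FI, from 938 to 5278 CPM for Tat, while Nr3c1 and Hsd11b1 lie lower in FS and FI than in VS and VI.

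Nr3c1 (ENSMUSG00000024431, mm10 chromosome 18, 39410545 to 39491301, minus strand) encodes the receptor. Its level was 87.6 CPM (VS), 81.5 (VI), 72.7 (FS) and 75.0 (FI). Both fibril libraries were below both vehicle libraries. The log2 ratio with fibrils was -0.27 (95% counting interval -0.36 to -0.18) for sedentary livers and -0.12 (-0.21 to -0.03) for trained livers. With IT the log2 ratio was -0.10 (-0.19 to -0.01) in vehicle livers and 0.05 (-0.04 to 0.14) in fibril livers.

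Hsd11b1 (ENSMUSG00000016194, chromosome 1, 193221630 to 193264054, minus strand) encodes the reductase that makes active corticosteroid inside hepatocytes. It was counted at 1052 CPM (VS), 1039 (VI), 858 (FS) and 884 (FI). The fibril libraries were again lower, with log2 ratios of -0.29 (-0.32 to -0.27) between the sedentary and -0.23 (-0.26 to -0.21) between the trained libraries. Between trained and sedentary livers it differed by -0.02 (-0.04 to 0.01) with vehicle and by 0.04 (0.02 to 0.07) with fibrils, and the sign of the latter turned when libraries were scaled by total counts.

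Fkbp5 (ENSMUSG00000024222, chromosome 17, 28399095 to 28517524, minus strand) encodes an immunophilin that lowers the affinity of the receptor for its hormone and is itself induced by the receptor. Its level was 100 CPM (VS), 151 (VI), 187 (FS) and 368 (FI). The FI library stood above VI and FS added together. The log2 ratio with IT was 0.59 (0.52 to 0.67) in vehicle livers and 0.97 (0.93 to 1.02) in fibril livers, and with fibrils 0.90 (0.83 to 0.97) in sedentary and 1.28 (1.23 to 1.34) in trained livers.

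Tsc22d3 (ENSMUSG00000031431, chromosome X, 140539528 to 140600659, minus strand), also called GILZ, encodes a leucine zipper protein that dampens inflammatory transcription. It was at 94.6 CPM (VS), 123 (VI), 130 (FS) and 200 (FI). VI and FS were close neighbours, with a log2 ratio of 0.08 (0.01 to 0.14) between them, whereas FI stood above both. The ratio with IT was 0.38 (0.30 to 0.46) in vehicle and 0.63 (0.57 to 0.69) in fibril livers, and that with fibrils was 0.45 (0.38 to 0.53) in sedentary and 0.70 (0.64 to 0.77) in trained livers.

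Dusp1 (ENSMUSG00000024190, chromosome 17, 26505590 to 26508519, minus strand) encodes a phosphatase that inactivates MAP kinases, p38 among them. Its level was 23.5 CPM (VS), 32.6 (VI), 43.3 (FS) and 91.1 (FI). The log2 ratio with IT was 0.47 (0.32 to 0.63) in vehicle livers and 1.07 (0.97 to 1.17) in fibril livers. The ratio with fibrils was 0.88 (0.74 to 1.03) in sedentary and 1.48 (1.36 to 1.60) in trained livers. FI was more than 2-fold above FS, which no other of the 10 genes reached. Its exons share 11 bases with Ergic1 on the opposite strand, and no source used here gives the strand setting of the counting.

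Tat (ENSMUSG00000001670, chromosome 8, 109990437 to 109999803, plus strand) encodes tyrosine aminotransferase, the first enzyme of tyrosine breakdown and a classical hepatic response gene of the hormone. It was at 938 CPM (VS), 2018 (VI), 3226 (FS) and 5278 (FI). Per length Tat was the most abundant of the 8 targets, with 398 FPKM (fragments per kilobase and 1000000 fragments) in VS and 2168 FPKM in FI. The log2 ratio with IT was 1.10 (1.08 to 1.13) in vehicle and 0.71 (0.70 to 0.72) in fibril livers, and that with fibrils was 1.78 (1.76 to 1.80) in sedentary and 1.39 (1.37 to 1.40) in trained livers.

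Lpin1 (ENSMUSG00000020593, chromosome 12, 16535669 to 16589770, minus strand) encodes lipin 1, a phosphatidate phosphatase of triglyceride synthesis that also acts with transcription factors of fatty acid oxidation. Its level was 111 CPM (VS), 241 (VI), 429 (FS) and 690 (FI). Each of VI, FS and FI was more than 2-fold above VS. The log2 ratio with IT was 1.12 (1.06 to 1.19) in vehicle and 0.69 (0.65 to 0.72) in fibril livers, and that with fibrils was 1.95 (1.89 to 2.02) in sedentary and 1.52 (1.47 to 1.56) in trained livers.

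Sgk1 (ENSMUSG00000019970, chromosome 10, 21882184 to 21999903, plus strand), whose window held the full palindrome shown above, encodes a kinase that controls ion channels and transporters. It was at 25.2 CPM (VS), 27.8 (VI), 43.6 (FS) and 67.3 (FI). VS and VI did not differ beyond counting error, with a log2 ratio of 0.14 (-0.02 to 0.30), whereas FI stood 0.63 (0.52 to 0.73) above FS. The ratio with fibrils was 0.79 (0.65 to 0.93) in sedentary and 1.27 (1.15 to 1.41) in trained livers.

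Klf9 (ENSMUSG00000033863, chromosome 19, 23141226 to 23166911, plus strand) and Zbtb16 (ENSMUSG00000066687, chromosome 9, 48654311 to 48835945, minus strand) encode zinc finger transcription factors, the latter also called PLZF. Klf9 was at 56.5 CPM (VS), 68.6 (VI), 80.5 (FS) and 92.4 (FI), the narrowest fold range of the 8 targets. With IT the log2 ratio of Klf9 was 0.28 (0.17 to 0.38) for vehicle and 0.20 (0.12 to 0.28) for fibril livers. With fibrils it was 0.51 (0.41 to 0.61) in sedentary and 0.43 (0.34 to 0.52) in trained livers.

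Zbtb16 was at 15.8 CPM (VS), 27.0 (VI), 36.4 (FS) and 44.9 (FI). Per length it was the least abundant of the 10 genes, with 3.13, 5.25, 7.32 and 8.58 FPKM in the same order. The largest of its steps was from VS to the others: VI stood 0.77 (0.58 to 0.96) and FS 1.20 (1.03 to 1.38) above VS on the log2 scale, while FI stood 0.30 (0.18 to 0.42) above FS and 0.73 (0.59 to 0.88) above VI.

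In VI versus VS, 2 of the 10 genes, Tat and Lpin1, were more than 2-fold higher and none lower, against 3.44% of the 12180 genes tested (1.54% higher, 1.90% lower). In FI versus FS it was 1, Dusp1, against 4.26% (1.72% higher, 2.54% lower). In FS versus VS it was 3, Tat, Zbtb16 and Lpin1, against 5.78% (3.60% higher, 2.18% lower). In FI versus VI it was 5, Fkbp5, Tat, Sgk1, Lpin1 and Dusp1, against 4.54% (2.59% higher, 1.95% lower). The median log2 ratio of the 8 targets was 0.53, 0.66, 0.89 and 1.28 in the same order of contrasts, while that of all genes tested lay between 0.0004 and 0.020. The VS library serves 2 of these contrasts, and so does each of the others, so the contrasts are not independent. At a threshold of 1.5-fold, 4, 6, 6 and 7 of the 10 genes were beyond it in these contrasts, against 11.7%, 13.5%, 17.5% and 14.0% of all genes tested. With 1 library per group, none of these contrasts has a test.

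**Figure D2:**
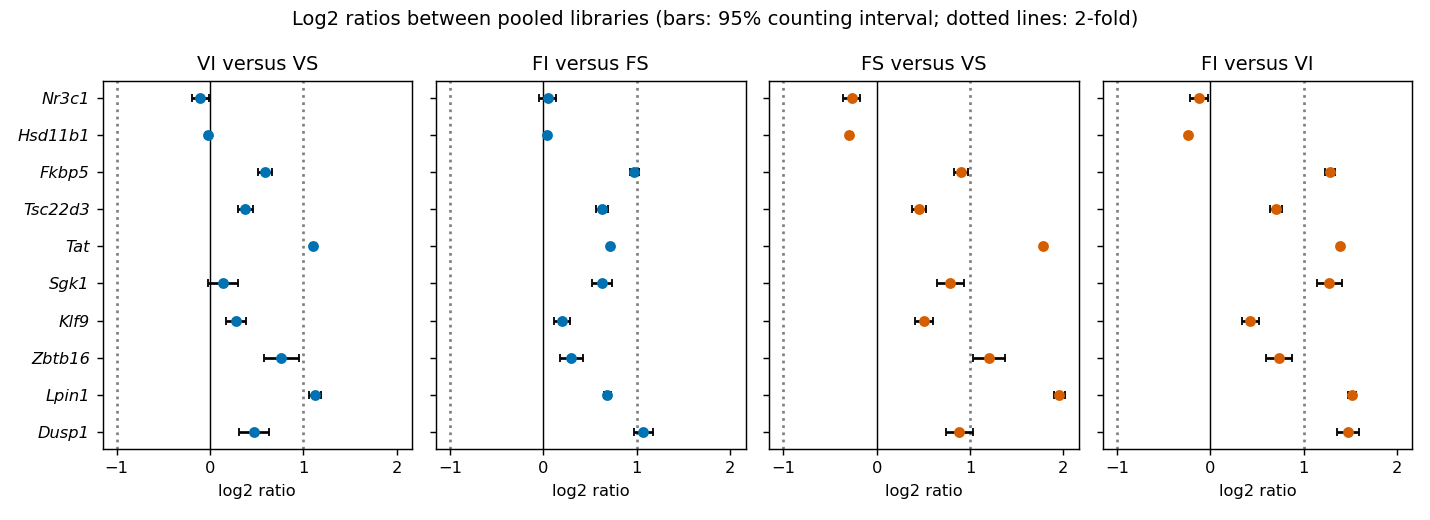
Log2 ratios of the 10 genes (rows) in VI versus VS and FI versus FS (blue, training) and in FS versus VS and FI versus VI (orange, fibrils), with bars for the 95% counting interval and dotted lines at 2-fold. All points of the 8 targets lie right of 0, up to 1.95 for Lpin1 in FS versus VS, and Nr3c1 and Hsd11b1 lie left of 0 in both fibril contrasts.

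The rising order from VS over VI and FS to FI, noticed in the levels of the targets, was found in 8 of the 10 genes. It was found in 7.94% of the 12180 genes tested, and the falling order in 7.24%. How far the steps between neighbouring levels exceed the spread between mice cannot be read from pooled libraries.

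To test both factors at the same time, an additive model of amyloidosis and IT was fitted across 11760 genes with edgeR's quasi-likelihood test and Benjamini-Hochberg adjustment, in which the 1 residual degree of freedom is the interaction. With 1 pool per group, the SE and adjusted p of this fit do not measure the spread between mice. The fit takes departures of the pools from additivity as noise. Such a departure had a counting interval above 0 for 4 of the 8 targets and below 0 for 3. Genes said to rise or fall passed the threshold of this fit only. With amyloidosis, 7 of the 10 genes rose and none fell, against 4.97% of all genes (2.81% higher, 2.17% lower). Lpin1 rose by a log2 change of 1.73 ± 0.147 (SE, adjusted p = 0.00143), Tat by 1.58 ± 0.162 (adjusted p = 0.0031), Dusp1 by 1.18 ± 0.157 (adjusted p = 0.00795) and Fkbp5 by 1.09 ± 0.135 (adjusted p = 0.00606). Sgk1 rose by 1.03 ± 0.143 (adjusted p = 0.00795), Zbtb16 by 0.96 ± 0.143 (adjusted p = 0.0104) and Tsc22d3 by 0.57 ± 0.120 (adjusted p = 0.0339). Klf9, at 0.46 ± 0.110 (adjusted p = 0.0504), missed the threshold, as did Hsd11b1 at -0.27 ± 0.132 (adjusted p = 0.285) and Nr3c1 at -0.20 ± 0.112 (adjusted p = 0.346).

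With IT, 3 of the 10 genes rose in the same edgeR fit and none fell, against 1.48% of all genes (0.765% higher, 0.714% lower). Lpin1 rose by 0.91 ± 0.144 (adjusted p = 0.0261), Tat by 0.91 ± 0.160 (adjusted p = 0.0356) and Fkbp5 by 0.79 ± 0.134 (adjusted p = 0.0306). Dusp1 had the same change as Fkbp5, 0.79 ± 0.156, with an adjusted p of 0.059. The adjusted p was 0.1001 for Tsc22d3 (0.51 ± 0.120), 0.143 for Zbtb16 (0.52 ± 0.143), 0.258 for Sgk1 (0.39 ± 0.142) and 0.361 for Klf9 (0.24 ± 0.109). Nr3c1 (-0.03 ± 0.112, adjusted p = 0.943) and Hsd11b1 (0.01 ± 0.132, adjusted p = 0.978) were near 0.

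These calls rest on the model holding both factors. With each factor alone in the edgeR model, 0 of the 10 genes passed for either (lowest adjusted p = 0.124 with amyloidosis and 0.898 with IT). An unadjusted p below 0.05 was found for 8 with amyloidosis, against 1617 of all 11760 genes. With IT it was found for 0, against 650 of all genes. With at least 5 CPM required in 2 libraries, 0 passed with IT, the lowest adjusted p being 0.0531. In that fit 7 had an unadjusted p below 0.05, against 1402 of all 8999 genes.

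**Figure D3:**
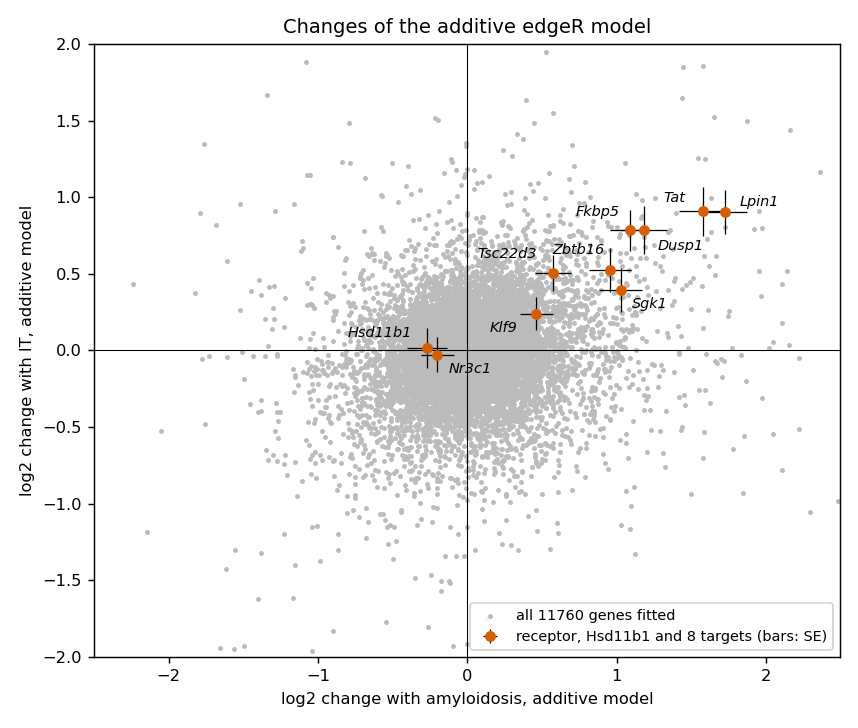
Log2 change with amyloidosis (horizontal) and with IT (vertical) in the additive edgeR model, for the 11760 genes fitted (grey, 36 of them outside the axes) and the 10 genes (orange, bars for the SE). The 8 targets lie in the upper right quadrant, from Klf9 (0.46 and 0.24) to Lpin1 (1.73 and 0.91), and Nr3c1 and Hsd11b1 lie near the centre.

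To describe how IT and amyloidosis combined, the log2 ratio of FI versus FS was set against that of VI versus VS. The difference was above 0 with its counting interval for 4 of the 8 targets, at 0.60 (0.41 to 0.78) for Dusp1, 0.49 (0.30 to 0.68) for Sgk1, 0.38 (0.29 to 0.47) for Fkbp5 and 0.25 (0.15 to 0.35) for Tsc22d3. It was below 0 for 3 targets, Zbtb16 at -0.47 (-0.69 to -0.25), Lpin1 at -0.44 (-0.51 to -0.36) and Tat at -0.39 (-0.42 to -0.37), and Klf9 was at -0.08 (-0.21 to 0.05). Nr3c1 was at 0.15 (0.02 to 0.28) and Hsd11b1 at 0.06 (0.02 to 0.10). In all, 9 of the 10 genes had an interval without 0, against 39.1% of 12156 genes. Of the same 12156 genes, 19.3% had an interval that lay above 0. This difference between log2 ratios has no replicate test.

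On the linear scale the picture differed for the abundant targets. FI exceeded the sum of both single changes (VI plus FS minus VS) with its counting interval for 6 of the 8 targets, Tat and Lpin1 now among them, against 21.0% of all genes tested. Tat was 973 CPM (931 to 1014) above a sum of 4305 CPM, and Lpin1 was 131 CPM (116 to 146) above a sum of 559 CPM. Relative to the sum the excess was larger for Dusp1, 38.7 CPM (33.3 to 44.0) above 52.4 CPM, for Fkbp5, 130 CPM (119 to 141) above 238 CPM, and for Sgk1, 21.1 CPM (16.1 to 26.1) above 46.1 CPM. Tsc22d3 was 42.3 CPM (33.2 to 51.4) above 158 CPM. Klf9 (-0.158 CPM, -6.88 to 6.56) and Zbtb16 (-2.69 CPM, -7.02 to 1.63) lay at the sum within counting error.

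The wider pathway was described with lists of known partners, steroid handling genes and further induced genes. Among the 16 partners and co-regulators of the receptor, the additive edgeR fit called 0 with IT and 0 with amyloidosis, against 1.48% and 4.97% of all genes, shares at which a list of this size would hold hardly any call. An unadjusted p below 0.05 was found for 1 of the 16 with IT and 3 with amyloidosis, against 1726 and 2512 of all 11760 genes. By ratio, Hsp90aa1, the inducible Hsp90 that keeps the receptor ready to bind, was at 192 CPM (VS), 77.7 (VI), 124 (FS) and 174 (FI). It was thus more than 2-fold lower in VI than in VS (log2 ratio -1.30, -1.38 to -1.23) and higher in FI than in VI (1.17, 1.09 to 1.24). Nr3c2, the mineralocorticoid receptor that binds the same hormones, was at 8.72, 7.35, 10.8 and 4.38 CPM, with a log2 ratio of -1.29 (-1.63 to -0.98) in FI versus FS. The list as a whole had median log2 ratios with IT of -0.22 (vehicle) and 0.17 (fibril), and with fibrils of -0.15 (sedentary) and 0.15 (trained).

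Of 9 genes of corticosteroid supply and clearance, 7 passed the filter on low values, and Hsd11b2 and Srd5a2 had no count in any library, which allows up to 0.104 to 0.128 CPM each. Serpina6 encodes corticosteroid-binding globulin, the carrier of the hormone in plasma. It was at 1225 CPM (VS), 735 (VI), 494 (FS) and 469 (FI), the reverse of the order of the targets. FS lay at a log2 ratio of -1.31 (-1.34 to -1.28) and VI at -0.74 (-0.76 to -0.71) against VS. In the additive edgeR fit it fell by 0.99 ± 0.177 on the log2 scale with amyloidosis (adjusted p = 0.0216), while with IT it was at -0.41 ± 0.176 (adjusted p = 0.342). It was the 1 gene of the list that changed with either factor, against 1.48% of all genes with IT and 4.97% with amyloidosis. H6pd, which supplies the cofactor of Hsd11b1, stayed between 413 and 457 CPM in all libraries.

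A list of 34 further glucocorticoid-induced genes of liver, 33 of which passed the filter, was mostly higher as well. The median log2 ratio with IT was 0.48 (vehicle) and 0.45 (fibril), that with fibrils 0.57 (sedentary) and 0.56 (trained), and 14 of the 33 (42.4%) had the rising order of the 8 targets, against 7.94% of all genes tested. In the additive edgeR fit, 12 rose and 1 fell with amyloidosis, against 2.81% and 2.17% of all genes, and 5 rose with IT, against 0.765%. Ddit4, an inhibitor of mTORC1 signalling, went from 3.60 CPM in VS to 15.1 in VI, 55.3 in FS and 175 in FI, the largest change of the list. It rose by 3.70 ± 0.145 with amyloidosis (adjusted p = 2.02e-05) and by 1.82 ± 0.138 with IT (adjusted p = 0.00115).

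Got1, an aspartate aminotransferase, was at 86.6, 454, 376 and 947 CPM in VS, VI, FS and FI, so that VI stood above FS. It rose by 1.86 ± 0.248 with IT (edgeR, adjusted p = 0.026) and by 1.58 ± 0.246 with amyloidosis (adjusted p = 0.0199). Fam107a was at 0.551, 1.23, 1.66 and 13.1 CPM and rose with both factors in the edgeR fit (adjusted p = 0.0355 with IT and 0.0129 with amyloidosis). Most of its counts were in the FI library, 317 against 13 (VS), 30 (VI) and 49 (FS). Its log2 ratio with IT was larger in fibril than in vehicle livers by 1.83 (0.80 to 2.87), a difference that the fit takes as noise. The other 3 genes that rose with IT also rose with amyloidosis: they were Ddit4, Igfbp1 and Sds.

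Not all induced genes moved like the 8 targets. Pdk4, a kinase that shuts pyruvate out of oxidation and a target of fasting signals, was at 26.0, 51.0, 5.79 and 44.5 CPM, lowest in FS. G6pc, the last enzyme of gluconeogenesis, was at 206, 381, 181 and 694 CPM, so that it was high in both trained libraries. Cdkn1a, a cell cycle inhibitor, was at 5.63, 35.4, 30.8 and 56.1 CPM. In the additive edgeR fit Pdk4 (adjusted p = 0.348 with IT, 0.424 with amyloidosis), Cdkn1a (0.353 and 0.286) and G6pc (0.0593 and 0.486) did not pass. Their log2 ratio with IT differed between fibril and vehicle livers by 1.965, -1.783 and 1.053. Such a difference is the residual of this fit. By qPCR of single livers, the paper reports Cdkn1a as raised by IT and by amyloid deposition. It also reports Pdk4 and G6pc as raised by exercise in the liver. The gene of the list that fell with amyloidosis, Fgf21, was named after its values were seen, as were Igfbp1 and Sds.

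Of 14 paralogues of the 10 genes, 13 were in the additive edgeR fit, which called 0 with either factor; 3 had an unadjusted p below 0.05 with IT and 6 with amyloidosis. The rising order was found in 1 of the 14. The calls and the rising order are near the shares over all genes and do not set the paralogues apart. The unadjusted p was below 0.05 for 1726 of all 11760 genes fitted with IT and for 2512 with amyloidosis. The 3 and 6 of 13 paralogues lie above these shares. Lpin3, the paralogue of Lpin1 with the largest ratio, was at 1.86, 2.59, 5.49 and 4.05 CPM in VS, VI, FS and FI, and FS stood 1.55 (1.07 to 2.07) above VS on the log2 scale. Its change with amyloidosis was 1.09 ± 0.282 (edgeR, adjusted p = 0.0663).

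**Figure D4:**
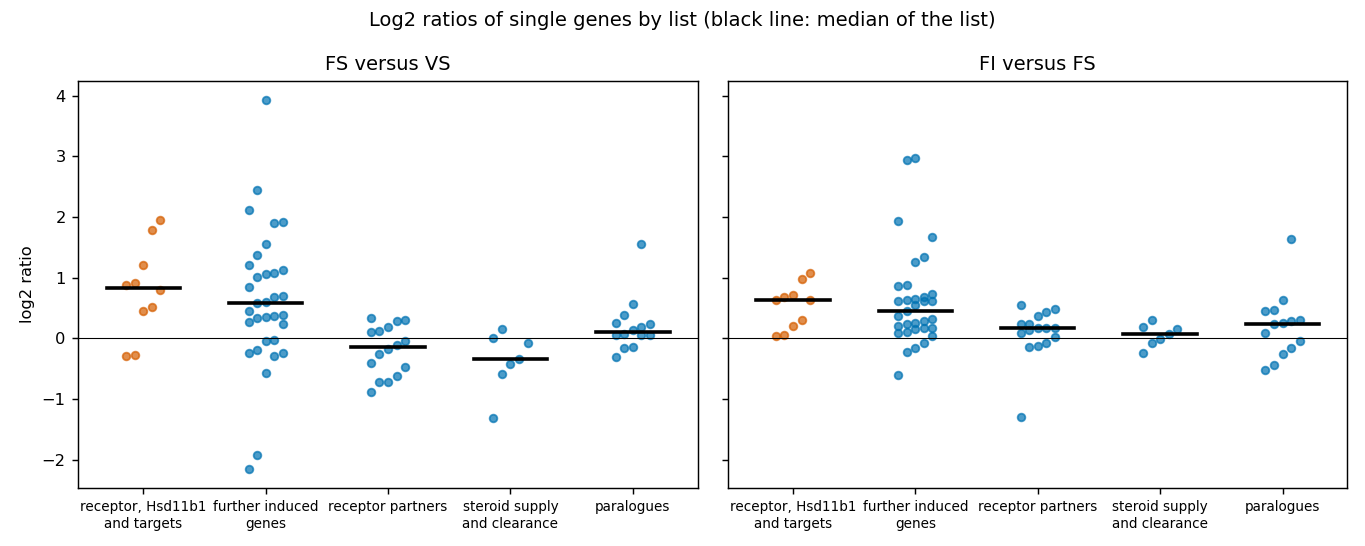
Log2 ratios in FS versus VS (left) and FI versus FS (right) of the receptor, Hsd11b1 and the 8 targets (orange) and of further induced genes, receptor partners, steroid supply genes and paralogues (blue), 1 point per gene that passed the filter and a black line at the median of each list. In FS versus VS the medians are 0.83 for the first list, 0.57 for further induced genes, -0.15 for partners, -0.35 for supply genes and 0.10 for paralogues.

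Several other measures moved with the same libraries. In bulk tissue, a change in the number of cells of a type and a change in RNA per cell cannot be told apart. Hepatocyte markers were detected throughout, 8 of 8, with a summed level of 160800 CPM (VS), 165000 (VI), 175300 (FS) and 180600 (FI), an order that the targets share. Most of this sum was Alb, at 119900 CPM in VS and 135800 CPM in FI. Of the 8, 2 had this order singly, Alb and Cps1, against 7.94% of all genes tested. Lower in FI than in FS were 3 of the 8. Cps1 is also 1 of the 34 further induced genes. Acute phase genes, which glucocorticoids and cytokines both induce, had 8 of 8 members detected and a summed level of 7881, 10890, 18970 and 20540 CPM. This sum, carried by Fgb and Hp, had the same order too. Singly, 4 of the 8 genes had it, against 7.94% of all genes tested: Saa1, Saa2, Lcn2 and Hp. From VS to FI, Saa1 went from 29.98 to 1803 CPM and Saa2 from 9.951 to 1164 CPM. Over the same libraries Lcn2 went from 6.352 to 549.1 CPM and Hp from 3489 to 8022 CPM. The other 4 were lower in FI than in FS, such as Fgb with 9689 CPM in FS and 7828 CPM in FI. In the additive edgeR fit, 3 of the 8 rose with amyloidosis, against 2.81% of all genes, and 0 changed with IT, against 1.48%. With IT, 3 had an unadjusted p below 0.05, against 1726 of all 11760 genes. With amyloidosis it was 7, against 2512 of all genes. The part of both lists in the levels of the targets was not tested.

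Macrophage markers, 10 of 10 detected, summed to 325 CPM (VS), 391 (VI), 503 (FS) and 495 (FI). Neutrophil markers were near the limit of detection at 2.08 to 4.44 CPM and lymphocyte markers at 2.34 to 3.98 CPM. Stellate cell markers (209 to 244 CPM), endothelial markers (151 to 178 CPM) and adipocyte markers (2.92 to 3.82 CPM, Lep at 0 in all libraries) did not have the order of the targets.

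Skeletal muscle markers, led by Acta1, were at 78.5 CPM (VS), 10.2 (VI), 1.12 (FS) and 1.08 (FI), with 12 of 13 detected in any library and Tnnc2 at 0 in all. The VS library thus carried muscle RNA, in the reverse order of the targets. Immediate early genes, which also respond to handling, were at 182, 156, 277 and 216 CPM. The part of the muscle and immediate early genes in the result was not tested.

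Some clock genes, which keep the daily rhythm that the hormone also follows, differed between trained and sedentary libraries in both backgrounds. Dbp was at 102 CPM (VS) and 22.3 (VI) with vehicle and at 80.9 (FS) and 25.5 (FI) with fibrils, and Nr1d1 was at 30.02, 7.10, 49.1 and 7.19 CPM in the same order. Arntl, which peaks opposite to them, was at 1.44, 6.65, 1.12 and 4.71 CPM, and Cry1 at 13.9, 31.5, 6.37 and 22.3 CPM. In the additive edgeR fit with IT, Dbp (log2 change -1.93 ± 0.149, adjusted p = 0.00115) and Nr1d1 (-2.43 ± 0.184, adjusted p = 0.00115) fell, and Arntl (2.14 ± 0.250, adjusted p = 0.00752) and Cry1 (1.48 ± 0.176, adjusted p = 0.00803) rose. These 4 genes were named after their values were seen. They were 2 of 8 fitted genes in phase with Dbp and 2 of 4 opposite to it. Over all genes, 0.714% fell and 0.765% rose with IT. With amyloidosis, the edgeR fit called 0 of those in phase and 1 of those opposite, against 4.97% of all genes. This was Cry1, which fell (adjusted p = 0.0404). The summed levels, with Tef the most abundant of those in phase, were 734, 436, 604 and 483 CPM in phase with Dbp and 46.9, 96.1, 42.4 and 64.6 CPM opposite to it. Whether libraries differed in clock phase at sampling, and what part that had in the change of the targets with IT, was not tested.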

How the data were processed

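Frozen liver of 4 female mice per group was homogenized in TRIzol and pooled by group, and the authors sequenced 1 library of each of VS, VI, FS and FI on an Illumina platform. The authors deposited whole-number read counts per gene without normalization, and FPKM values that equal count per kilobase and 1000000 counts when recomputed. The submitters' processing notes name fastp 0.23.2, STAR 2.5, HTSeq 0.6.1 and the build mm10; the annotation release and the strand setting are given in no source used here. For their own calls the authors used edgeR, without a stated dispersion for single libraries.

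Counts were scaled by TMM with edgeR 4.0.16 in R 4.3.3. Ratios were taken for the 12180 genes that reached 1 CPM in any library, with a prior of 0.5 counts and exact conditional binomial (Clopper-Pearson) intervals at 95%; beyond 2-fold counted as called. The additive model (3 coefficients) was fitted with robust quasi-likelihood to the 11760 genes that reached 1 CPM in 2 or more libraries. Benjamini-Hochberg adjustment covered all of them, with calls at adjusted p below 0.05. limma 3.58.1 and DESeq2 1.42.0 gave alternatives. Python 3.11.15 with matplotlib 3.10.9 drew the figures. Sequences are from RefSeq windows of GRCm38.p6.

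The genes and lists were chosen with earlier results of these data known. From the lists, the text names genes beyond 2-fold in any of the 4 contrasts that reached 5 CPM in any library, at most 6 per list by the largest ratio. The order VS, VI, FS, FI and the linear excess were chosen after the levels were seen.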

Additional observations from a re-analysis of the deposited data

Results flagged for a closer look

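Hsp90aa1 differed in direction between backgrounds: with IT its log2 ratio was -1.30 in vehicle livers and 0.49 in fibril livers, a difference of 1.79, and with fibrils it was -0.62 in sedentary and 1.17 in trained livers, a difference of 1.79 by construction of the same 4 libraries. For Nr3c2 the log2 ratio with fibrils was 0.30 in sedentary and -0.74 in trained livers, a difference of -1.05. For G6pc it was -0.19 in sedentary and 0.86 in trained livers, a difference of 1.05. Each value compares single libraries, and these differences were not tested.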

How the results depend on the processing

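The contrasts compare pools of 4 mice without replicates, so the depth limits only counting error, and no paired analysis was possible because each group has 1 library. At a 1.5-fold threshold, 4 genes were called in VI versus VS, 6 in FI versus FS, 6 in FS versus VS and 7 in FI versus VI. At the 2-fold threshold, FPKM with a pseudocount of 1 or of 0.1 called 0 in FI versus FS, where CPM called Dusp1. Hsd11b1 in FI versus FS turned to a log2 ratio of -0.03 under total counts and under FPKM with either pseudocount (-0.02759, -0.02754 and -0.02758). Another scaling, prior or FPKM moved the log2 ratios of the 10 genes by at most 0.19.

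With IT, the number of changed genes was 6 without a filter on low counts, 0 with at least 5 CPM in 2 libraries, 0 with the factor alone and 0 with each library left out of that fit in turn; DESeq2, limma-voom, DESeq2 size factors and the fit without robust estimation gave 4. With amyloidosis it was 0 with the factor alone and 0 with each library left out of it, and 7 or 8 under all other fits. Each library was also left out in turn. Leaving out a library leaves the additive model no residual degree of freedom, so the factor alone was used there. Such a fit does not separate IT from fibril injection. Without FI it set VI against VS and FS together, so that only the sedentary side held a fibril library. The change with IT was then -0.03845 for Tat and -0.1548 for Lpin1 (edgeR). In VI versus VS their log2 ratios were 1.105 and 1.125. The alternative fits gave 88 changes of the 8 targets for each factor, all from the same 4 libraries and not independent. Of these, 88 were above 0 with amyloidosis (0.24 to 2.33) and 83 with IT (-0.30 to 2.07). They include the fits with a library left out.

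Over all genes, 740 were called with IT and 1519 with amyloidosis of the 19939 fitted without a filter. With at least 5 CPM it was 82 and 410 of 8999 genes. With the factor alone it was 0 and 8 of 11760, against 174 and 585 in the main fit. The IT count at an unadjusted p below 0.05 was 650 with the factor alone. Without a filter 21.6% to 23.6% of genes were beyond 2-fold, and with at least 5 CPM 1.54% to 3.78%. The counts of genes in rising order (8) and with an interval of the departure without 0 (7 to 9) changed little with the scaling.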
